A study of Canis lupus familiaris with 29 samples.

Results

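The granins and the enzymes that process prohormones were followed through 10 genes, taken by gene name from a table of exon read counts. They are CHGB, SCG2, SCG3, SCG5, VGF, PCSK1, PCSK2, CPE, PCSK1N and PAM, and all 10 were found among the 30951 genes of the table. RNA had been sequenced from 29 canine tissue samples, comprising 10 normal adrenal medullas (NAM) and 19 pheochromocytomas and paragangliomas (PPGL), which are tumors of chromaffin cells in the adrenal medulla or outside it. The authors had divided the PPGLs into group 1, with 7 tumors, and group 2, with 12 tumors, from a principal component analysis of the same samples, so a p between the groups only describes that split. The tumors came from client-owned dogs and the NAMs from healthy dogs, so the origin of the dogs and the kind of tissue cannot be told apart. The NAMs were snap-frozen. Tumors were taken at several institutions, at surgery or after euthanasia, and were snap-frozen or first put in RNAlater. These differences in collection cannot be told apart from the kind of tissue either. The labels name no treatment in any group, and age, sex, breed and genotype were not used here.

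Granins are acidic proteins of the dense-core granules in which chromaffin cells store catecholamines and peptides, and several of them are themselves cut into peptides. Prohormone convertases cut the precursors inside the granule, a carboxypeptidase trims the basic residues that remain at the cut ends, and an amidating enzyme modifies the ends of many peptides. Granins have long been used as tissue and blood markers of chromaffin cell tumors.

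Counts were expressed as CPM, the counts of a gene scaled to a common library size after TMM normalization. Total counts were 19258054 to 35918182 per NAM and 18208718 to 31919833 per PPGL, with medians of 25494016.5 in NAMs, 20825468 in group 1 and 22051743 in group 2. A count of 3, taken as the smallest level these depths can show, corresponds on this scale to 0.0779 to 0.164 CPM for the NAMs and, for the PPGLs, to 0.0895 to 0.175 CPM. This floor and the intervals given below cover counting error only.

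The chromaffin label was checked with 11 of 12 listed markers, which include the catecholamine enzymes TH and DBH. Their summed level was 9019 to 31449 CPM in NAMs, 4205 to 40861 CPM in group 1 and 6002 to 28933 CPM in group 2. The medians in these groups were 11030, 24815 and 17237 CPM, and DBH was the most abundant marker in each. TH was low in replicates 3 and 5 of group 1 (10.8 and 2.15 CPM) and in replicate 7 of group 2 (32.3 CPM). Adrenal cortex markers, 10 of 11 in the table, summed to 13289 to 64404 CPM in NAMs (median 34721), with CYP17A1 the most abundant. They summed to 52.0 to 1164 CPM in group 1 (median 239), where STAR was the most abundant and CYP11A1, HSD3B2, MC2R and MRAP were each at 0 in some sample. In group 2 they summed to 245 to 32184 CPM (median 3470), and replicate 10, the highest, lay within the range of the NAMs. These markers moved with each comparison given below, and their part in the results was not tested beyond a fit with a cortical score.

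Replicate 7 of group 1 stood apart. It had the lowest level of all 29 samples in CHGB, SCG5, VGF, PCSK1, PCSK1N and PAM. Of the chromaffin markers, TH was at 1382 CPM and DBH at 5204 CPM. PNMT, at 11.6 CPM, was the lowest of all 29 samples. The summed chromaffin markers, 7912 CPM, were below every NAM, but this was shared with other tumors. They were also below every NAM in replicates 3 and 5 of group 1 (5138 and 4205 CPM). The same held for replicates 1, 9 and 11 of group 2 (8611, 7415 and 6002 CPM). The fibroblast and pericyte markers of this tumor summed to 2413 CPM, the highest of group 1. Its cycling cell markers, 3 genes in the table, summed to 1028 CPM, against 12.5 to 145 CPM in the other tumors of group 1. Replicate 2 of group 1 had the lowest SCG2 and SCG3 of all samples. Among the NAMs, replicate 3 had the highest level in 7 of the 10 genes, and also the highest TH (5970 CPM) and DBH (17272 CPM) of the NAMs.

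Per kilobase of exon, CHGB ranked first of the 10 genes in all 3 groups and 8 of 14766 among all genes in each. Its median level was 6565 CPM per kilobase in NAMs, 4006 in group 1 and 7715 in group 2. In NAMs the order of the medians was CHGB, SCG2, SCG5, SCG3, PAM, PCSK1N, CPE, PCSK1, VGF and PCSK2, from 6565 down to 31.8 CPM per kilobase. Neighbours in this order overlapped for PAM and PCSK1N, where PAM was the higher in 6 of 10 NAMs, and were separated in all 10 NAMs for CHGB over SCG2, SCG5 over SCG3, PCSK1N over CPE and PCSK1 over VGF. SCG3 moved to the second place in group 1, with a median of 1277 CPM per kilobase, and to the third place in group 2, with 2092. There SCG2 had a median of 2110 CPM per kilobase and was above SCG3 in 4 of 12 tumors, so these levels did not differ beyond their spread. PCSK2 was last in NAMs and in group 2, at 3.37 CPM per kilobase, but in group 1 it stood at 34.8, above VGF at 10.5 in 5 of 7 tumors.

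CHGB, chromogranin B, is a granin that takes part in forming granules. In NAMs it ran from 5688 to 61698 CPM with a median of 21468, and in group 2 from 9361 to 80504 CPM with a median of 25228. Group 1 ran from 27.1 to 90852 CPM with a median of 13098. The groups overlapped, with 14 of 19 PPGLs inside the range of the NAMs, 4 above it and replicate 7 of group 1 below it. As a share of all counts, CHGB took 0.570% to 5.29% in NAMs. The highest share in a PPGL was 8.32% in replicate 4 of group 1 (95% Wilson interval 8.30 to 8.33), and the lowest was 0.00327% in replicate 7 of group 1 (0.00305 to 0.00350). The 10 genes together took 1.11% to 6.47% of all counts in NAMs and 0.107% to 9.69% in PPGLs.

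SCG2, secretogranin II, is the precursor of the peptide secretoneurin. Its level was 866 to 4015 CPM in NAMs (median 1586), 31.9 to 4261 CPM in group 1 (median 609) and 779 to 6549 CPM in group 2 (median 4585). The tumor groups leaned apart: 7 of 12 tumors of group 2 lay above every NAM, and 4 of 7 tumors of group 1 lay below every NAM. All 7 tumors of group 1 were below the median of group 2, although replicate 6, at 4261 CPM, was above every NAM.

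SCG3, a granin that binds granule membranes and helps to sort other granins, was the member with the smallest adjusted p between PPGLs and NAMs. It ran from 603 to 2656 CPM in NAMs (median 1012), from 109 to 10970 CPM in group 1 (median 3395) and from 2651 to 9021 CPM in group 2 (median 5561). In all, 15 of 19 PPGLs were above every NAM, among them 11 of 12 tumors of group 2. The 12th, replicate 9 at 2651 CPM, lay just under the highest NAM. Replicates 2 and 7 of group 1, at 109 and 337 CPM, were below every NAM. SCG3 shares 213 exon bases with DMXL2 on the opposite strand, and the strand setting of the counting is not given in the sources used here, but DMXL2 had 58014 counts over all samples and SCG3 had 2529747.

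VGF, a granin-like precursor of several neuropeptides, differed in the other direction. Its level was 49.7 to 960 CPM in NAMs (median 162), 5.30 to 51.6 CPM in group 1 (median 29.3) and 12.4 to 307 CPM in group 2 (median 71.2). Below every NAM were 6 of 7 tumors of group 1 and 5 of 12 of group 2, and no PPGL was above every NAM. The 960 CPM of NAM replicate 3 was well above the next NAM at 306 CPM.

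PCSK1 and PCSK2 encode the prohormone convertases of endocrine and neuronal granules. PCSK1 was at 240 to 1413 CPM in NAMs (median 339), 2.38 to 666 CPM in group 1 (median 141) and 67.3 to 606 CPM in group 2 (median 253). Below every NAM were 10 of 19 PPGLs, 5 in each tumor group, and none was above every NAM. PCSK2 had the widest range of the 10 genes in PPGLs, 4443-fold, set at its upper end by replicate 1 of group 1. Without that tumor the range was that of group 2, 617-fold. The range of CHGB, 3350-fold, was set at its lower end by replicate 7 of group 1, at 27.1 CPM. The other tumors of group 1 had 6827 to 90852 CPM of CHGB. Within group 2 the range of CHGB was 8.60-fold, against 617-fold for PCSK2. PCSK2 ran from 63.2 to 292 CPM in NAMs (median 136). In group 2, 10 of 12 tumors lay below every NAM, at 0.332 to 42.2 CPM, the lowest from 7 counts. Replicates 6 and 7 of group 2, at 170 and 205 CPM, lay inside the range of the NAMs. In group 1, replicates 1 to 6 had 1475, 180, 69.5, 149, 77.9 and 197 CPM, all above the 10 low tumors of group 2. Replicate 7 of group 1 had 0.336 CPM, from 10 counts.

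SCG5 and PCSK1N encode small granule proteins that act on these convertases: SCG5 (7B2) is the chaperone that PCSK2 needs to mature, and PCSK1N (proSAAS) is the precursor of an inhibitor of PCSK1. SCG5 ran from 629 to 1838 CPM in NAMs (median 881), and 14 of 19 PPGLs lay in that range and 5 below it. The median was 828.9 CPM in group 1 and 945 CPM in group 2, and 9 of 12 tumors of group 2 lay inside the range of the NAMs, against 2 of 12 for PCSK2. PCSK1N ran from 264 to 652 CPM in NAMs (median 410), and its medians in groups 1 and 2 were 508 and 514 CPM. The range of the NAMs held 12 of 19 PPGLs, with 5 above it and 2, replicates 2 and 7 of group 1, below it.

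CPE, carboxypeptidase E, trims the peptides after the convertases have cut. It was at 218 to 546 CPM in NAMs (median 308), at 136 to 223 CPM in group 1 (median 159) and at 110 to 671 CPM in group 2 (median 427). Every tumor of group 1 was below the median of the NAMs and 5 of 7 were below every NAM, whereas 10 of 12 tumors of group 2 were above every tumor of group 1. PAM, the peptide-amidating enzyme, ran from 891 to 1491 CPM in NAMs (median 1006), from 56.1 to 1389 CPM in group 1 (median 793) and from 720 to 1946 CPM in group 2 (median 1280). PPGLs lay on both sides of the NAMs for PAM, with 4 of 19 above every NAM, all of group 2, and 7 below, of which 4 were of group 1.

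**Figure D1:**
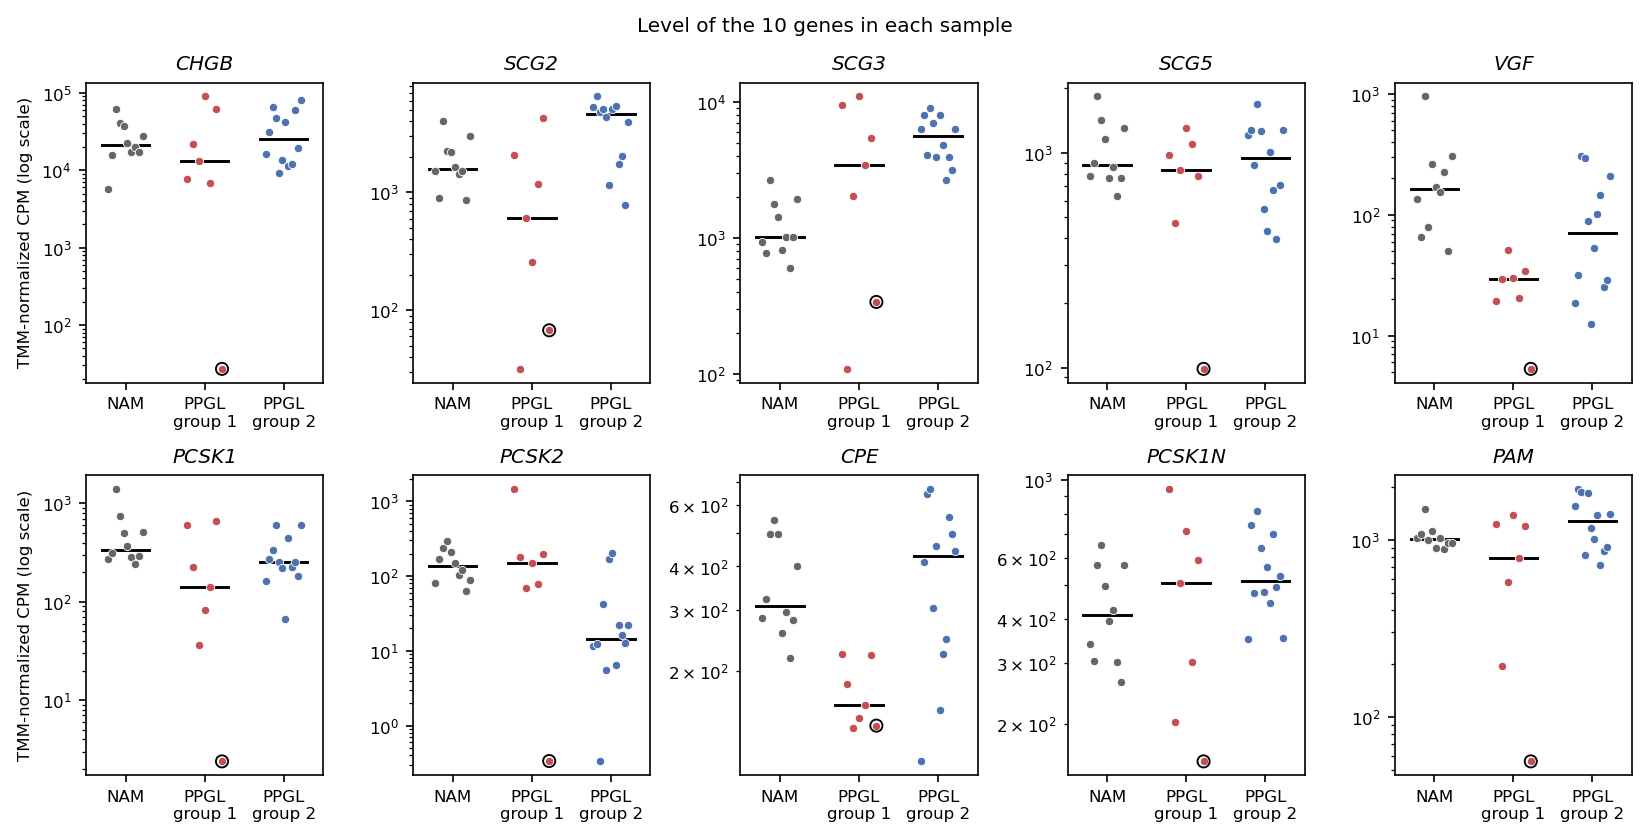
Level of each of the 10 genes in every sample, in CPM on a log axis, for 10 NAMs, 7 PPGLs of group 1 and 12 PPGLs of group 2; each point is a sample, the black bar is the median and the ringed point is replicate 7 of group 1. SCG3 lay above every NAM in 15 of 19 PPGLs, PCSK2 lay below every NAM in 10 of 12 tumors of group 2, and CPE of group 1 lay between 136 and 223 CPM.

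PPGLs were first compared with NAMs, the question being which genes differ between tumor and normal medulla. SCG3 rose and VGF fell, and the other 8 genes did not pass the test. SCG3 had a log2 fold change (FC) of 2.01 ± 0.45 (SE; n = 19 and 10) with an edgeR adjusted p of 0.000958, and was above the median of the NAMs in 17 of 19 PPGLs. VGF fell by 1.60 ± 0.54 with an edgeR adjusted p of 0.0197, and was below that median in 16 of 19. PCSK1 had a log2 FC of −0.80 (adjusted p = 0.163), and the remaining log2 FCs ran from −0.23 for SCG5 to 0.57 for SCG2. The count of 2 of 10 genes stands beside 37.5% of the 14766 genes tested, of which 5541 passed an adjusted p below 0.05, so it is not a result about the 10 genes as a set. Their median log2 FC was −0.0131, against 0.128 over all genes tested.

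The fitted value of PCSK2, a log2 FC of −0.10 ± 0.81 (adjusted p = 0.932), follows means and was pulled up by replicate 1 of group 1 at 1475 CPM. Without that tumor the log2 FC was −1.18 (adjusted p = 0.155). By position, PCSK2 was below the median of the NAMs in 13 of 19 PPGLs. The Mann-Whitney U-test, which goes by rank, gave PCSK2 an adjusted p of 0.0562 and PCSK1 an adjusted p of 0.0616. Both lay just above the threshold of 0.05. Of the genes followed here, 4 had an unadjusted p below 0.05 in that test and 2 in edgeR. The fall of VGF did not pass in edgeR without NAM replicate 3, with a log2 FC of −1.02 and an adjusted p of 0.128. With the cortical score as a covariate VGF did not pass either (log2 FC −0.40, adjusted p = 0.775) and PCSK2 did (−3.79, adjusted p = 0.0173), but that score nearly separates the groups, so the fit also removes differences between them. All samples were pieces of tissue, so fewer cells of a type and less RNA per cell cannot be told apart.

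Each tumor group was then compared with the NAMs in a fit of all 3 groups, to show in which group the differences lay. Both comparisons share the 10 NAMs. All 3 cycling cell markers rose in both, with a median log2 FC of 4.11 in group 1 and 1.89 in group 2. Of 7 fibroblast and pericyte markers, 1 rose and 1 fell in group 1, and 4 rose in group 2. Of 5 endothelial markers, 1 fell in group 1 and 3 fell in group 2. Of all genes tested, 21% rose and 14.1% fell in group 1, and 18.4% rose and 14.5% fell in group 2. In group 1, SCG3 rose, with a log2 FC of 1.81 ± 0.52 (n = 7 and 10, edgeR adjusted p = 0.00766), and was above the median of the NAMs in 5 of 7 tumors. VGF fell by 3.15 ± 0.71 (edgeR adjusted p = 0.00100) and CPE fell by 1.06 ± 0.29 (edgeR adjusted p = 0.00557), each below the median of the NAMs in 7 of 7 tumors. These 3 of 10 genes stand beside 35.1% of 15201 genes, and the same 3 genes passed without each of the 29 samples in turn. SCG3 did not pass with the sample number as a replicate block (log2 FC 1.29, adjusted p = 0.173). In edgeR with the cortical score added none of the 10 passed, 1 of them had an unadjusted p below 0.05, and 12 of all genes passed; DESeq2 without the score called 3. The log2 FCs in edgeR with the score were 2.21 for SCG3 (adjusted p = 0.495), −4.25 for VGF (0.348) and −1.13 for CPE (0.557). The score ran from −0.294 to 3.85 in group 1 and from 9.07 to 11.15 in NAMs, without overlap. Score and group thus cannot be told apart in this fit, and the size of its log2 FCs cannot be read. SCG2, SCG5, PCSK1, PCSK2 and PAM changed sign in it.

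In group 2, SCG3 was the gene that passed the test. It rose by 2.11 ± 0.48 on the log2 scale (n = 12 and 10, edgeR adjusted p = 0.00143) and was above the median of the NAMs in 12 of 12 tumors. This count of 1 of 10 stands beside 32.9% of 15201 genes. PCSK2 had a log2 FC of −1.79 ± 0.78 (adjusted p = 0.0755) and was below the median of the NAMs in 10 of 12 tumors. It passed the test without replicate 7 of group 1 (adjusted p = 0.0416), without replicate 6 of group 2 (−2.25, 0.0310) and without replicate 7 of group 2 (−2.37, 0.0202), and in DESeq2 (adjusted p = 0.0432), so its call turned on single libraries and on the tool. Its log2 FC was −2.66 (adjusted p = 0.0747) with the replicate block and −3.52 (0.0679) with the cortical score. VGF had a log2 FC of −1.14 ± 0.54 (adjusted p = 0.104), which passed without replicate 3 of group 2 (−1.39, 0.0493) and was −0.55 (adjusted p = 0.416) without NAM replicate 3. SCG2 had a log2 FC of 0.99 ± 0.53 (adjusted p = 0.152) and was above the median of the NAMs in 10 of 12 tumors. The median log2 FC of the 10 genes was −0.415 in group 1 and 0.214 in group 2, against 0.134 and 0.0948 over all genes tested.

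**Figure D2:**
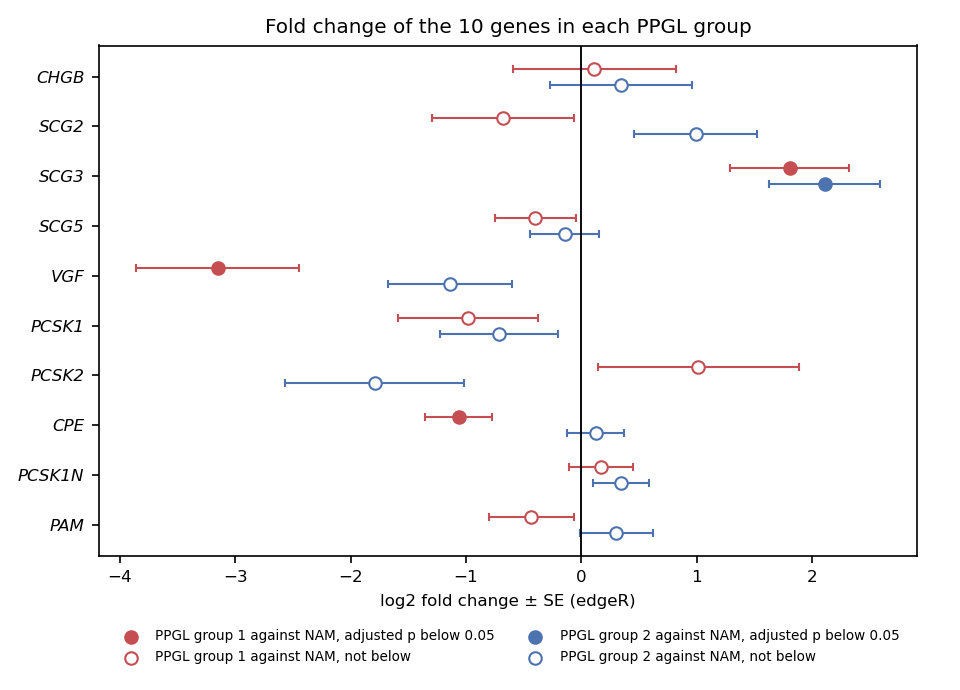
Log2 FC of the 10 genes in PPGL group 1 and in PPGL group 2, each against NAM, with bars of 1 SE; filled points had an adjusted p below 0.05. SCG3 was filled in both groups (1.81 and 2.11), and VGF (−3.15) and CPE (−1.06) were filled in group 1.

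The tumor groups were compared with each other in the 19 PPGLs, at an adjusted p below 0.1 as the authors used for the groups, but with edgeR's p in place of their Mann-Whitney p and without their limit on log2 FC. VGF and CPE were lower in group 1. CPE fell by 1.18 ± 0.32 on the log2 scale (n = 7 and 12, edgeR adjusted p = 0.0453) and VGF fell by 2.02 ± 0.65 (edgeR adjusted p = 0.0874). Each was below the median of group 2 in 7 of 7 tumors of group 1. All 3 cycling cell markers were also called between the groups in edgeR, MKI67, TOP2A and BUB1 being higher in group 1 (log2 FC 1.80, 2.22 and 2.38), while the Mann-Whitney U-test called 0 of them, and 9 of 10 cortical markers were lower. Cycling markers summed to 12.5 to 1028 CPM in group 1 and 19.7 to 117 CPM in group 2, with TOP2A the most abundant. The 1028 CPM was that of replicate 7, and the other tumors of group 1 had 12.5 to 145 CPM. Of 7 fibroblast and pericyte markers none passed in edgeR, although 5 had an unadjusted p below 0.05 and the median log2 FC was −2.08. The part of cycling cells and fibroblasts in the difference was not tested. The 2 of 10 genes stand beside 6.92% of 14666 genes tested, and the 10 genes were not tested as a set. The median log2 FC of the 10 was −0.266, against 0.0353 over all genes tested. PCSK2 had a log2 FC of 2.84 ± 1.00 (adjusted p = 0.117) and was above the median of group 2 in 6 of 7 tumors of group 1. SCG2 had a log2 FC of −1.65 ± 0.72 (adjusted p = 0.211), and the others ran from −0.72 for PAM to −0.16 for PCSK1N.

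The difference in CPE passed without each of the 19 tumors in turn, with adjusted p from 0.0234 to 0.0989, and the difference in VGF did not pass in 12 of these 19 fits, with adjusted p from 0.0657 to 0.167 over all of them. PCSK2 passed without replicate 7 of group 1 (log2 FC 3.08, adjusted p = 0.0949), without replicate 6 of group 2 (3.30, 0.0821) and without replicate 7 of group 2 (3.42, 0.0679), and its log2 FC was 1.37 (adjusted p = 0.427) without replicate 1 of group 1. SCG2 passed without replicate 6 of group 1 (−2.43, 0.0683). DESeq2 called 4 of the 10, adding SCG2 (adjusted p = 0.0739) and PCSK2 (0.0452), while the Mann-Whitney U-test called 0, with SCG2 and CPE, 2 of the 10, at an unadjusted p below 0.05 (adjusted p = 0.151 and 0.170, and 0.428 for VGF). With the cortical score as a covariate edgeR called 0, with 0 at an unadjusted p below 0.05, and 101 of all genes. The log2 FCs in that fit were −2.40 for VGF (adjusted p = 0.525) and −0.95 for CPE (0.632). With the replicate block neither passed (VGF −1.48, adjusted p = 0.490; CPE −0.98, 0.446).

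Levels of 4 pairs of partners were correlated over the 19 PPGLs as log2 CPM, with two-sided permutation tests adjusted over the 4 pairs. None of the 4 had an adjusted p below 0.05. PCSK1 and PCSK1N had Pearson's r = 0.545 (p = 0.0211, adjusted 0.0843) and Spearman's rho = 0.375 (p = 0.114, adjusted 0.457). Without the 2 tumors farthest from the median of PCSK1, replicates 3 and 7 of group 1, r was 0.174, so the relation rests on those samples, and it was 0.146 without replicate 7 alone. CHGB and SCG2 had r = 0.473 (permutation p = 0.0624, adjusted 0.125) and rho = 0.161 (p = 0.507, adjusted 0.787), and r was 0.260 without the 2 farthest and 0.0852 without replicate 7 of group 1, a choice made after the data were seen. PCSK2 and its chaperone SCG5 had r = 0.264 (permutation p = 0.270, adjusted 0.270) and rho = −0.132 (p = 0.591, adjusted 0.787), and r was 0.331 without the 2 farthest and −0.211 without replicate 7 of group 1.

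The convertases PCSK1 and PCSK2 were also correlated within each tumor group. Over all 19 PPGLs PCSK1 and PCSK2 had r = 0.338 (permutation p = 0.158, adjusted 0.210) and rho = 0.0228 (p = 0.929, adjusted 0.929), and r was −0.0754 without the 2 farthest. Within group 1 they had r = 0.929 (exact permutation p = 0.00496, adjusted 0.0198, n = 7) and rho = 0.929 (exact permutation p = 0.00675, adjusted 0.0270). Within group 2 they had r = −0.366 (permutation p = 0.233, adjusted 0.551, n = 12) and rho = −0.224 (p = 0.483, adjusted 0.966). The difference between the groups was not tested. Without replicate 7, a choice made after the data were seen, the relation in group 1 was r = 0.724 (exact permutation p = 0.0833, adjusted 0.333, n = 6) and rho = 0.886 (exact permutation p = 0.0333, adjusted 0.133), so its call rests on that sample. PCSK2 and SCG5 within group 1 had r = 0.855 (exact permutation p = 0.0812, adjusted 0.162) and rho = 0.214 (p = 0.662, adjusted 0.882), and r was 0.00691 without replicate 7. The 4 pairs were computed in all PPGLs, in group 1 and in group 2, and with replicate 7 left out, and p was adjusted within each set of samples.

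**Figure D3:**
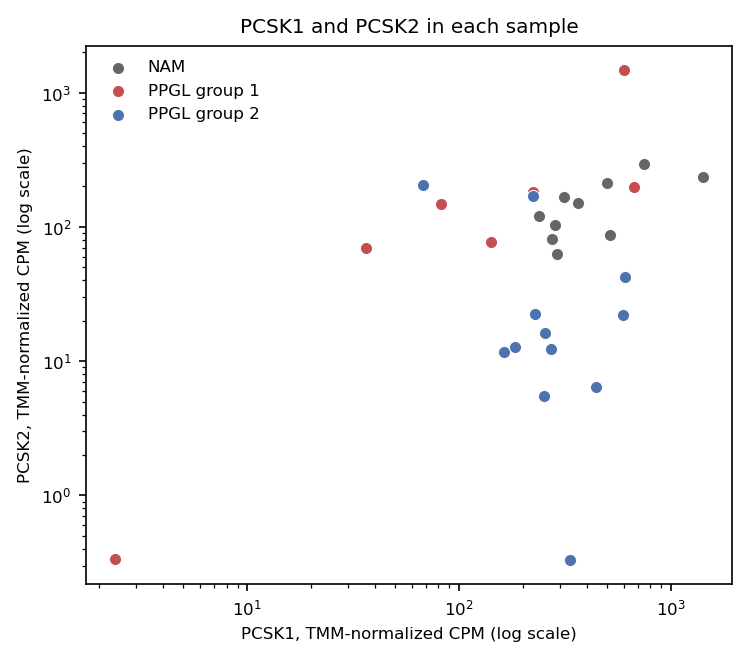
PCSK1 against PCSK2 in each of the 29 samples, both in CPM on log axes, with the NAMs and both tumor groups marked apart. Group 1 spans PCSK2 from 0.336 CPM in replicate 7 to 1475 CPM in replicate 1, and 10 of 12 tumors of group 2 lie below every NAM in PCSK2.

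Other enzymes that cut or trim peptides were compared between PPGLs and NAMs. Of 26 listed genes, 22 were tested, 2 rose and 6 fell. Of all genes tested, 37.5% passed in either direction, 22.3% upward and 15.2% downward. DPP4, a dipeptidyl peptidase of the cell surface, fell by 3.23 ± 0.61 (edgeR adjusted p = 0.000191) and reached 38.7 CPM at most in PPGLs, where NAMs had 32.3 to 159 CPM, with 17 of 19 PPGLs below every NAM. AEBP1, a carboxypeptidase-like protein of the extracellular matrix, fell by 2.87 ± 0.50 (adjusted p = 7.48e-05) and was below every NAM in 18 of 19. CPZ, another member of the carboxypeptidase family, fell by 2.21 ± 0.62 (adjusted p = 0.00621) and was below every NAM in 14 of 19. QPCT, which forms the pyroglutamate end of some peptides, rose by 0.84 ± 0.24 (adjusted p = 0.00664) and was above the median of the NAMs in 18 of 19 PPGLs. RNPEP, an aminopeptidase, rose by 0.37 ± 0.14 (adjusted p = 0.0411), but lost this call in 16 of 29 fits that left out a sample, with log2 FCs from 0.32 to 0.38 and adjusted p from 0.0507 to 0.0767 in these 16, and in 5 of 8 alternative settings, among them the Mann-Whitney U-test (adjusted p = 0.0740) and the fit without a filter (0.0685). With the cortical score as a covariate, RNPEP (log2 FC 0.38, adjusted p = 0.207), DPP4 (log2 FC −1.58, adjusted p = 0.0784), AEBP1 (−1.12, 0.242), CPZ (−0.65, 0.651) and QPCT (0.42, 0.388) did not pass.

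Genes of the granule membrane and of granule biogenesis were compared in the same way. Of 33 listed genes 32 were tested, 9 rose and 1 fell, beside 22.3% of all genes tested that rose and 15.2% that fell, and the median log2 FC was 0.243, against 0.128 over all genes. ICA1, a protein of immature granules, rose by 1.15 ± 0.21 (edgeR adjusted p = 9.77e-05) and was above every NAM in 17 of 19 PPGLs. CYB561, the cytochrome of the granule membrane, rose by 1.15 ± 0.27 (adjusted p = 0.00166), and SYT4, a synaptotagmin, rose by 1.12 ± 0.36 (adjusted p = 0.0141), above the median of the NAMs in 18 and 16 of 19. CADPS2, which primes granules for release, fell by 0.96 ± 0.34 (adjusted p = 0.0256), below that median in 18 of 19 PPGLs. That call was lost without NAM replicate 6 (log2 FC −0.88, adjusted p = 0.0521) and in the fit with the cortical score (−0.54, 0.507).

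Of 30 listed peptide precursors, 17 were tested between PPGLs and NAMs, 5 rose and 5 fell, beside 22.3% and 15.2% of all genes tested. GAL, the galanin precursor, rose by 5.34 ± 1.16 (edgeR adjusted p = 0.000701), from a range of 0.204 to 6.25 CPM in NAMs to a range of 0.371 to 418 CPM in the tumors, with 11 of 19 above every NAM. GRP, the precursor of gastrin-releasing peptide, rose by 4.92 ± 1.16 (adjusted p = 0.00147), but it was near the floor in NAMs, the highest of which had 0.199 CPM. Its fold may depend on the prior count, which was not varied for log2 FCs. PDYN, the dynorphin precursor, had a log2 FC of 3.12 ± 1.17 (adjusted p = 0.0363) that came from replicate 2 of group 1, at 177 CPM against at most 3.03 CPM in any other PPGL. Without that tumor it was −0.26 (adjusted p = 0.661), and it did not pass without NAM replicates 1, 5, 6, 7, 8, 9 or 10 in turn, with adjusted p from 0.0528 to 0.0602. CARTPT fell by 5.83 ± 0.85 (adjusted p = 7.63e-06), OXT by 4.80 ± 0.96 (adjusted p = 0.000320) and UCN by 4.22 ± 0.98 (adjusted p = 0.00131), below the median of the NAMs in 19, 19 and 18 of 19 PPGLs. OXT was at 0 in 13 and UCN in 9 of 19 PPGLs. The size of the fall of OXT followed replicate 7 of group 1, at 4.16 CPM where the other PPGLs had at most 0.159 CPM, and without that tumor the gene did not pass the filter. Its log2 FC was −7.79 in group 2 against NAM, and between PPGLs and NAMs it ran from −10.50, with the cortical score, to −4.56 over the 8 alternative settings. With the cortical score as a covariate GRP (log2 FC 2.87, adjusted p = 0.137) and UCN (−3.23, 0.115) did not pass. The other genes that passed, ADM and NPPC upward and CRH and NMB downward, are named after their values were seen.

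Of 6 listed regulators of neuroendocrine and granule genes, 4 were tested. Of all genes tested, 37.5% passed between PPGLs and NAMs in edgeR. Without a block or covariate, none passed between PPGLs and NAMs in edgeR (2 with an unadjusted p below 0.05) or in DESeq2, and the Mann-Whitney U-test called 1, CREB1. REST, a repressor of neuronal genes, had a log2 FC of −0.55 ± 0.26 (adjusted p = 0.0935) and was below the median of the NAMs in 16 of 19 PPGLs. It passed without NAM replicate 3 (−0.66, adjusted p = 0.0368) and with the replicate block (−0.55, 0.0392), while it was −0.40 (adjusted p = 0.246) without NAM replicate 7 and −0.37 (0.534) with the cortical score. Its partner RCOR1 had a log2 FC of 0.33 ± 0.17 (adjusted p = 0.119), and the activators CREB1 and ATF4 had 0.37 ± 0.17 (adjusted p = 0.0890; log2 FC 0.00294 and adjusted p = 0.995 with the cortical score) and 0.01 ± 0.17 (adjusted p = 0.978), the last of which was −0.011 with DESeq2's size factors and −0.0112 without the filter.

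Against the NAMs, 35.1% of all genes passed in group 1 and 32.9% in group 2, and between the tumor groups 6.92% did. Against the NAMs the lists gave 1 higher and 5 lower of 22 other enzymes in group 1 and 0 and 5 in group 2. They gave 8 higher and 2 lower of 32 granule membrane genes in group 1 and 8 and 1 in group 2, and 3 higher and 4 lower of 18 peptide precursors in group 1 and 3 and 6 in group 2. CREB1, which was at 30.4 CPM in replicate 7, was the regulator that passed in group 1, upward, and none did in group 2, where 0 of 4 had an unadjusted p below 0.05 in edgeR and DESeq2 called 0. Between the tumor groups, 0 of 22 other enzymes were higher and 2 lower in group 1, 1 of 32 granule membrane genes and 1 of 15 peptide precursors, PDYN (log2 FC 0.55, adjusted p = 0.664 without replicate 2 of group 1), were higher, and 0 of 4 regulators passed in edgeR (0 at an unadjusted p below 0.05), in DESeq2 or with the Mann-Whitney U-test. DPP4 (log2 FC −3.18 ± 0.82, edgeR adjusted p = 0.0388) and AEBP1 (−2.98 ± 0.53, adjusted p = 0.00606) were lower, below the median of group 2 in 7 of 7 tumors. Both calls were lost with the cortical score as a covariate (DPP4 −0.58, adjusted p = 0.959; AEBP1 −3.06, 0.135) and with the replicate block (−3.65, 0.348; −2.39, 0.190). SV2A, a granule membrane gene outside the rule for names and chosen after its value was seen, was the gene of its list that passed, upward in group 1. Against the NAMs, SV2A had a log2 FC of 0.08 in group 1 (edgeR adjusted p = 0.844). In group 2 it was lower than in NAMs (−1.03, edgeR adjusted p = 0.00134).

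Markers of other cells were also compared between PPGLs and NAMs, where 22.3% of all genes tested rose and 15.2% fell. Of the cortical markers, 0 rose and 9 of 10 fell, and of the chromaffin markers 4 of 11 rose and 1, PNMT, fell. All 3 cycling cell markers and 4 of 7 fibroblast and pericyte markers rose, 3 of 5 endothelial markers fell, and 2 of 6 leukocyte markers rose and 1 fell. Of 4 Schwann and sustentacular markers none passed in edgeR, with 1 at an unadjusted p below 0.05; DESeq2 called 1 and the Mann-Whitney U-test 2. The single liver or kidney marker tested, APOA1, fell. Beyond the fit with the cortical score, the part of these cells in the levels of the 10 genes was not tested.

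For each of the 10 genes, the named genes with the most similar order of levels over the 19 PPGLs were found by Spearman's rho, which is given as a description from the same libraries. CHGB was most like INPP5F (0.933) and DTNBP1 (0.823), SCG2 like ERLEC1 (0.891) and NXPH1 (0.851), and SCG3 like SLC39A1 (0.819) and NDUFA2 (0.795). VGF was most like PDGFA (0.823) and DNAAF5 (0.811), and SCG5 like PCDHGC3 (0.851) and ANGPTL2 (0.819). PCSK1 was most like RAB1A (0.839) and NCALD (0.80), and PCSK2 like SAP30L (0.872) and NUAK2 (0.853). CPE was most like THSD7A (0.832) and STAC2 (0.826), PCSK1N like MIEN1 (0.812) and QPCTL (0.805), and PAM like SCYL3 (0.853) and THY1 (0.846). The 10 genes themselves were left out of this search.

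On the CanFam3.1 assembly the 10 genes lie on 7 chromosomes. CHGB (15917215 to 15930158) and PCSK2 (5508714 to 5766153) are both on chromosome 24, SCG3 (17308591 to 17406646) and SCG5 (2261189 to 2315213) on chromosome 30, and PCSK1 (13233594 to 13274094) and PAM (8142061 to 8290477) on chromosome 3. VGF is on chromosome 6 (8700667 to 8704397), SCG2 on chromosome 37 (29435041 to 29437333), CPE on chromosome 15 (61321227 to 61414789) and PCSK1N on chromosome X (41962524 to 42036586). Apart from SCG3, none of the 10 shares exon bases with another annotated gene.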

How the data were processed

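The unit was the count: the authors deposited 1 table of raw counts of reads on the exons of Ensembl genes in 29 samples, and their processing notes name FastQC, STAR, Picard, HTSeq and CanFam3.1. All values were whole numbers when checked, and 24051 of 30951 genes had a count. Genes were kept by filterByExpr (minimum count 10, minimum total 15) and normalized by TMM. Comparisons used the quasi-likelihood F test of edgeR 4.0.16 in R 4.3.3 (prior count 0.125; SE from the log2 FC and F), with Benjamini-Hochberg adjustment over all genes tested and thresholds of 0.05 (NAM) and 0.1 (tumor groups). Levels were CPM, and correlations used log2 CPM with a prior count of 2, 100000 permutations (all orders under 10 samples) and scipy 1.17.1 in Python 3.11.15; figures used matplotlib 3.10.9. Steps were tested on simulated data. The members and lists were chosen with earlier results of these data known. The genes named are all members, up to 3 per direction and list with the largest log2 FC among those passing between PPGLs and NAMs, every gene of a list of 6 or fewer, and the 2 most similar genes per member. Genes not found by name included VAMP2, CYP11B2, CHGA, CCNB1, CD14, ALB, CPM, CTSL, ADCYAP1, NPPB, UCN2, INSM1 and NEUROD1, and 1 other enzyme, 10 peptide precursors and 3 markers did not pass the filter between PPGLs and NAMs. The alternatives were DESeq2's size factors, library size alone, DESeq2 1.42.0's Wald test, no filter, at least 1 CPM in at least 7 samples, a replicate block by sample number, the mean log2 CPM of 10 cortical markers as a covariate, the Mann-Whitney U-test, each sample left out in turn, and for correlations a prior count of 0.5. Added after the data were seen were correlations without replicate 7 of group 1.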

Additional observations from a re-analysis of the deposited data

Results flagged for a closer look

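For the 29 genes named, 58 sets of values in NAMs and in group 1 were searched for a sample far from the others, and 11 samples stood apart. Chance alone gives about 1 in 20 sets. Group 2, with more than 10 samples, was not searched. Replicate 7 of group 1 accounted for 8 of the 11. It was far below the other tumors of group 1 in CHGB (27.1 CPM, the others 6827 to 90852), SCG5 (98.5, the others 472 to 1301), VGF (5.30, the others 19.4 to 51.6) and PCSK2 (0.336, the others 69.5 to 1475). It was far above them in DPP4 (7.08 CPM, the others 0.175 to 0.952), OXT (4.16, the others 0 to 0.0298), UCN (1.61, the others 0 to 0.175) and CREB1 (30.4, the others 8.14 to 13.3). What sets this tumor apart was not tested.

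PDYN was at 177 CPM in replicate 2 of group 1, and at 0.133 to 3.03 CPM in the rest of that group. PAM was at 1491 CPM in NAM replicate 3, and at 891 to 1129 CPM in the other NAMs. OXT was at 0.130 CPM in NAM replicate 4, and at 2.21 to 16.2 CPM in the other NAMs.

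The tumor groups differed in the comparison made between them for VGF (log2 FC −2.02), CPE (−1.18), DPP4 (−3.18), AEBP1 (−2.98) and PDYN (4.96). The value of PDYN was 0.55 (adjusted p = 0.664) without replicate 2 of group 1.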

How the results depend on the processing

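The 10 genes gave 40 log2 FCs and the other named genes 36, the latter from the comparisons of PPGLs with NAMs and of the tumor groups. Under an alternative, 1298 of 1360 values of the 10 genes kept their direction and their side of the threshold, 24 lost and 12 gained a call, and 26 changed sign. For the other named genes these numbers were 1078 of 1158, 46, 9 and 25. The rise of SCG3 between PPGLs and NAMs passed under all 8 alternative settings (log2 FC 1.97 to 2.29, adjusted p up to 0.00966) and without each of 29 samples. Library size alone raised the median log2 FC of all genes in group 1 against NAM from 0.134 to 0.244.

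Between PPGLs and NAMs, 1 to 2 of the 10 genes passed when single samples were left out. Between the tumor groups the number was 1 to 3, 4 in DESeq2, 0 with the Mann-Whitney U-test, 0 with the sample number as a replicate block (2 at an unadjusted p below 0.05, and 47 of 14666 genes called) and 0 with the cortical score. The sample numbers count different dogs in each group, so the block carries no pairing known from the labels. Of all genes, 525 to 1218 passed between the tumor groups with single samples left out, 1793 in DESeq2 and 386 with the Mann-Whitney U-test, against 1015. In group 1 against NAM, 0 passed with the cortical score, where the log2 FCs were 2.21 for SCG3, −4.25 for VGF and −1.13 for CPE. The score did not overlap between these groups, so the size of those values cannot be read. With the replicate block SCG3 did not pass (log2 FC 1.29, edgeR adjusted p = 0.173). In group 2 against NAM, 2 passed in DESeq2 and 1 to 2 with single samples left out. Of all genes, 2170 passed between PPGLs and NAMs and 1067 in group 2 against NAM with the cortical score.

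All the values that changed sign had an adjusted p above the threshold under the alternative. Between PPGLs and NAMs they were PCSK2 with library size alone (0.0045), ATF4 with DESeq2's size factors and with its Wald test (both −0.011) and without a filter (−0.0112), and PDYN in DESeq2 (−0.29). With the replicate block they were CHGB (−0.0090), PAM (−0.0091), PDYN (−0.11) and ATF4 (−0.0699), and with the cortical score SCG5 (0.0216), CPE (0.49) and PDYN (−2.38). Between the tumor groups they were RCOR1 with library size alone (0.0254), RNPEP (−0.0767) and CARTPT (−3.45) with the replicate block, and with the cortical score CHGB (0.76), SCG3 (0.26), SCG5 (0.46), PCSK1 (1.38), PCSK1N (0.14), CREB1 (−0.13) and ATF4 (0.21). In group 1 against NAM they were CHGB (−0.42) and PCSK2 (−0.28) with the replicate block, and SCG2 (0.40), SCG5 (0.14), PCSK1 (0.73), PCSK2 (−2.68) and PAM (0.46) with the cortical score. In group 2 against NAM they were CPE with the replicate block (−0.0268) and SCG5 with the cortical score (0.0474).

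With single samples left out, values ran across 0 between PPGLs and NAMs for PCSK2 (−1.18 to 0.0512), ATF4 (−0.0573 to 0.0484) and PDYN (−0.26 to 3.26). Between the tumor groups they did so for PCSK1N (−0.41 to 0.0094), CARTPT (−0.62 to 0.96) and RCOR1 (−0.12 to 0.11), and in group 1 against NAM for CHGB (−0.53 to 0.34), PCSK2 (−0.44 to 1.28) and PCSK1N (−0.0727 to 0.34). For correlations, r of PCSK1 and PCSK2 was −0.0754 without the 2 farthest tumors and −0.111 without replicate 7 of group 1, and r of PCSK2 and SCG5 was −0.211 without that replicate. The cause of these changes was not tested. No level of the 10 genes lay below the floor. The lowest, 0.332 CPM of PCSK2 in replicate 3 of group 2, came from only 7 counts. Counting error therefore bears on that level and on the fold ranges of PCSK2 that it sets.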
